A study of Mus musculus with 14 samples.

Results

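Cytosolic ribosomal protein genes encode the proteins of the ribosome that translates messenger RNA in the cytoplasm. They were taken from the authors' deposited comparison as every row annotated as protein coding whose symbol has the form of a large subunit (Rpl, Rplp) or small subunit (Rps, Rpsa) gene, which gave 80 of 13130 genes. Of these, 47 carry large subunit and 33 small subunit names. The rule used names and no measured value. The list written for the ribosome holds 79 core genes, of which 77 are spelled as the rule asks. The 80 members were 76 of those 77 and 4 paralogs, and Rpl24 was not analysed here.

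The comparison set 7 Tet1 loxp/loxp mice of the C57BL/6 strain given AAV-Cre in the nucleus accumbens against 7 Tet1 loxp/loxp C57BL/6 mice given AAV-GFP there. Cre is a recombinase that deletes DNA between loxP sites, GFP is a fluorescent protein, and AAV is an adeno-associated virus that carries either gene into cells. Both groups carry the loxP alleles, so the AAV-GFP mice keep an intact Tet1 and also received a virus. Polyadenylated RNA was sequenced 4 weeks after injection, with 1 library per mouse. The labels name neither the promoter that drives Cre, nor the share of cells that took up virus, nor the age of the mice, and uninfected cells in the sample keep Tet1.

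The cytosolic ribosome has a small subunit that reads the messenger and a large subunit that joins amino acids. Their proteins are made in matched amounts, and most of their messengers begin with a terminal oligopyrimidine (TOP) tract of C and U bases. Through that tract the mTORC1 kinase and the RNA-binding protein LARP1 control their translation together, as they do for elongation factors. In the brain, ribosomal protein messengers are found in neurons, including their processes, and in glia, immune and vascular cells.

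The start regions of members with the smallest p in each subunit are shown first, since the TOP tract lies there. Sequences are from RefSeq (GRCm38.p6), which matched 59 of the 80 members by symbol. Each runs from 50 bases before the annotated start, through the start base, to 80 bases in all, on the strand of the gene. Capitals mark the longest unbroken run of C or T in the window, and the first of them where runs tie, as in Rps7 and Rpl41. Of the 12 members of smallest p, 7 had a run of at least 8 such letters and 5 did not. These are the 7, and Rplp0 and Rpl41 as 2 of those without:
Rplp2 (chr7:141447601-141447680, plus strand): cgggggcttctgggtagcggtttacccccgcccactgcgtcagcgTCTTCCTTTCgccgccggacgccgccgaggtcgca
Rpl10a (chr17:28328515-28328594, plus strand): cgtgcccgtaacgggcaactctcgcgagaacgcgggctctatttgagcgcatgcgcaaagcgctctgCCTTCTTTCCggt
Rps7 (chr12:28635924-28636003, minus strand): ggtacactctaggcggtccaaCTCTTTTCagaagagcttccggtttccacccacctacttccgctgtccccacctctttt
Rps10 (chr17:27635215-27635294, minus strand): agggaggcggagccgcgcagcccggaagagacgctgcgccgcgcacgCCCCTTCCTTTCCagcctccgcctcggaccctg
Rps18 (chr17:33955636-33955715, minus strand): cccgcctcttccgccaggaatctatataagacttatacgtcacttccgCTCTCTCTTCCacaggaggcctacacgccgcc
Rps9 (chr7:3703991-3704070, plus strand): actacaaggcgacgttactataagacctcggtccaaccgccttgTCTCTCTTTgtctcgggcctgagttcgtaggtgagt
Rps16 (chr7:28350639-28350718, plus strand): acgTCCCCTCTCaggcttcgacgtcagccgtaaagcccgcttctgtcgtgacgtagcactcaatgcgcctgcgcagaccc
Rplp0 (chr5:115559417-115559496, plus strand): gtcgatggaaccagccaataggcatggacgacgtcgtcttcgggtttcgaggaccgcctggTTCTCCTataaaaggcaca
Rpl41 (chr10:128549139-128549218, minus strand): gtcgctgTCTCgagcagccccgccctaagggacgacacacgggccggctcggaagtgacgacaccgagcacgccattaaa

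In Rps10, Rps18, Rplp2 and Rps9 the run spans the annotated start, beginning 3, 2, 5 and 6 bases before it. In Rps7 the marked run begins 29 bases before, and a run of the same length ends the window after the start. In Rps16 the run begins 47 bases before, and in Rpl10a 17 bases after the second of its 2 annotated starts. Over the 70 start windows of the 59 matched members, 42 held a run of at least 8 C or T letters, against 9972 (30.4%) of all 32851 windows in the RefSeq table. The ETS-type motif CCGGAAG, searched on both strands of the whole 300 bases, was present in 37.1% of member promoters and 8.86% of all promoters. The YY1-type motif CCATCTT was present in 17.1% of member promoters and 6.34% of all, and the TATA motif TATAAA in 7 of 70 member promoters and 13.6% of all, each on both strands. The reverse strand of the ETS-type motif is itself rich in C and T, so it can overlap a run. Within the members, the median log2 fold change (authors' deposited table) was 0.15 for the 39 matched genes with a run and 0.15 for the 20 without one. The fold changes thus did not separate by a run anywhere in the window. Such a run need not lie at the start, so these medians do not compare genes with and without a TOP tract.

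All 80 ribosomal protein genes had a log2 fold change above 0, that is, a higher level in AAV-Cre than in AAV-GFP mice, and none passed an adjusted p of 0.05. Their median log2 fold change in the authors' deposited table was 0.15, a level 11.1% higher in AAV-Cre mice, and single genes ran from 0.08 (5.86%) for Rpl22l1 to 0.24 (18.2%) for Rplp0. The median was 0.09 once the trend of all genes with main transcript length was removed. Over all 13130 genes 59.1% had a log2 fold change above 0, and the median was 0.02. The adjusted p (limma columns of the authors' deposited table) lay between 0.919 and 0.939 for the members, and 0% of all genes passed 0.05. An unadjusted p under 0.05 with a higher level was listed for 9 of the 80 members (11.2%), where the share of all genes was 4.62%. At an unadjusted p under 0.1 the count was 38 of 80 (47.5%), against 8.97% of all genes. Short genes had larger shares: of non-members with an exonic length up to 2636 bases, 69.0% were above 0. Among these, 8.16% were higher at an unadjusted p under 0.05 and 14.5% under 0.1. For the 57 members of such length the shares were 12.3% and 49.1%. Among 6838 non-members within the level range of the core members they were lower, 2.53% and 5.85%. A lower level at an unadjusted p under 0.05 was listed for no member and for 0.533% of all genes.

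The members resembled each other more closely than the error of any one of them. Across the 80 genes the log2 fold changes in the authors' deposited table had an SD of 0.03, while the median standard error of a single gene was 0.09 (range 0.04 to 0.13). Values after ± are such standard errors. In 68 of 80 members the log2 fold change fell between 0.1 and 0.2, with 6 above and 6 below. The 95% limits derived from the table included 0 for 71 members and included the members' median for all 80. The limits ran down to -0.14, for Rps4l, and up to 0.48 on the log2 scale, for Rplp0. The genes come from the same 14 mice and share whatever sets those libraries apart, so 80 like values are not 80 independent observations. Values per mouse are not analysed here, and whether single mice carry the shift was not tested.

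**Figure D1:**
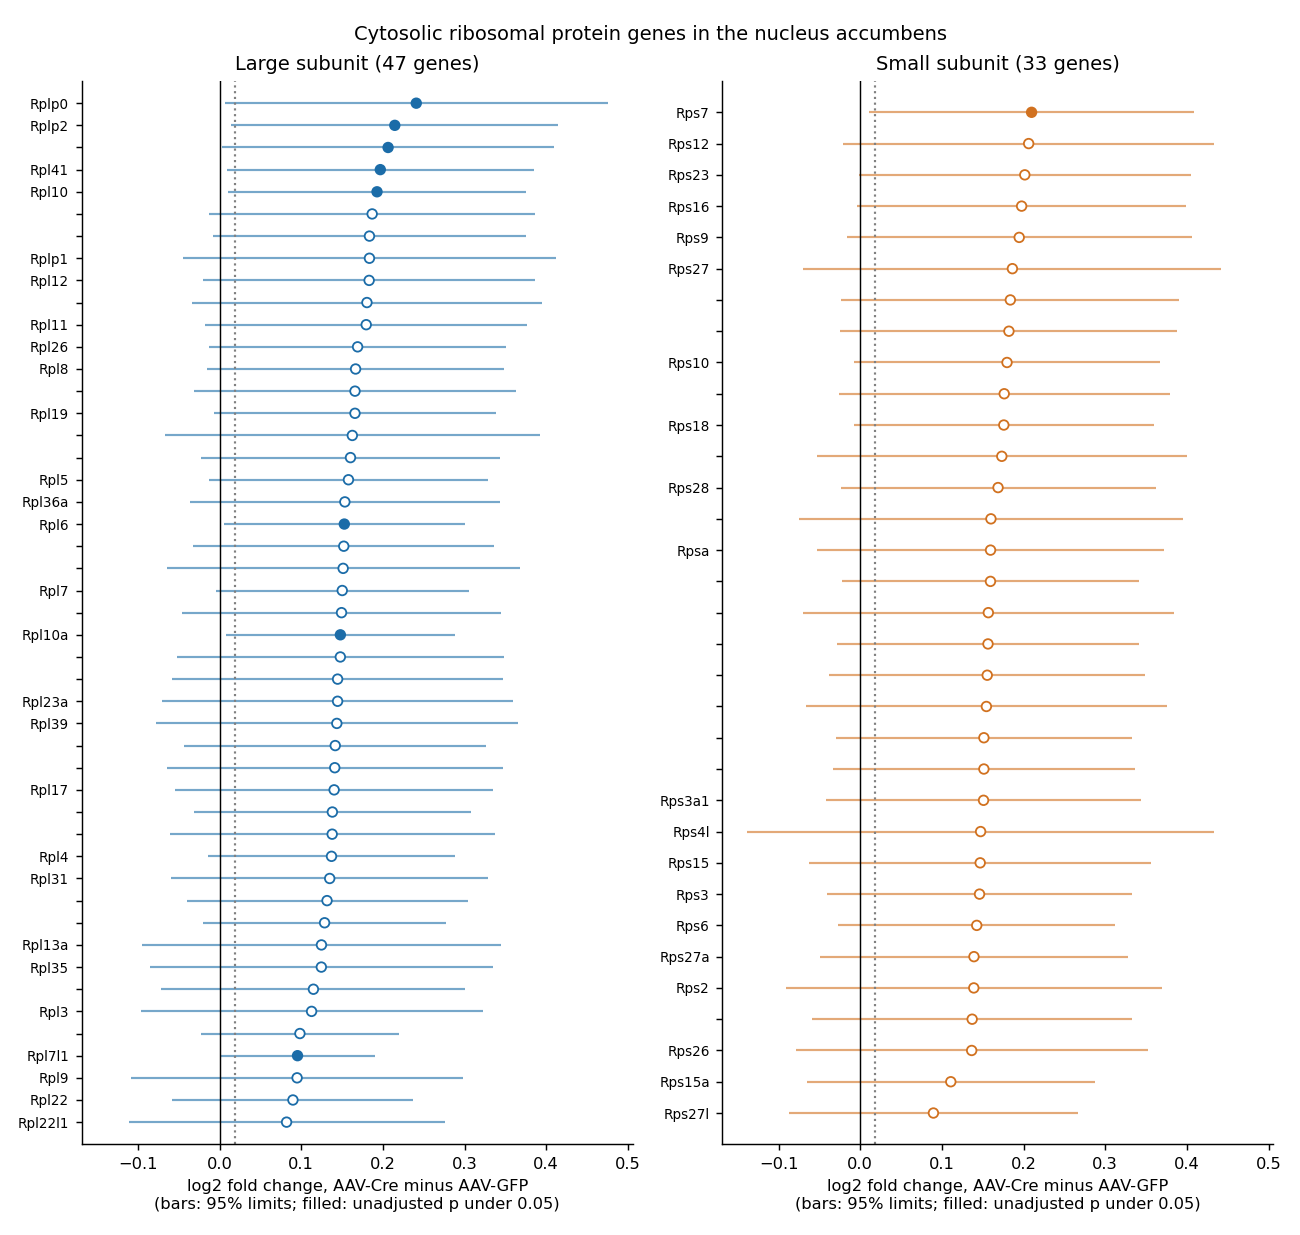
Log2 fold change of AAV-Cre minus AAV-GFP for each of the 47 large subunit (left) and 33 small subunit (right) genes, ordered by value, with genes described in the text labelled; bars are 95% limits, filled points have an unadjusted p under 0.05, the solid line marks 0 and the dotted line the median of all genes at 0.02. All 80 points lie right of both lines, between 0.08 and 0.24, and 71 of the bars cross 0.

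The medians of marker lists for several cell types stood away from 0 in the same comparison. Ribosomal protein messengers are made in all of these cell types. In the authors' deposited table the median log2 fold change was 0.49 for microglia (12 of 12 above 0), 1.53 for leukocytes (5 of the 6 measured of 18 above 0), 0.54 for choroid plexus and ependyma (5 of the 5 measured of 8) and 0.18 for endothelium (10 of 10). It was 0.09 for astrocytes (7 of 9), 0.05 for oligodendrocytes (8 of 8) and 0.09 for striatal projection neurons (8 of 10). General neuronal markers had -0.21, with 0 of 9 above 0. Median log2 levels were low for leukocytes (1.33) and for choroid plexus and ependyma (1.66). By smallest p, Ctss and C1qa led the microglial list (0.72 ± 0.25 each) and Syt1 the neuronal list (-0.23 ± 0.12) in the authors' deposited table. In the same 2 lists, P2ry12 (0.02) and Rbfox3 (-0.01) lay near 0. A higher level at an unadjusted limma p under 0.05 was listed for 7 of 12 microglial, 5 of 6 leukocyte and 3 of 10 endothelial markers. It was listed for 1 of 5 choroid plexus and ependymal and 1 of 9 astrocyte markers, beside 4.62% of all genes. No general neuronal marker was lower at that p, beside 0.533% of all genes. The part of these cell types in the ribosomal values was not tested. In bulk tissue, a change in the share of a cell type and a change in RNA per cell cannot be told apart. The striatal gene Penk, which marks projection neurons of the region, had a mean log2 level of 10.3 in that deposited table. Tet1 itself had a log2 fold change of -0.13 ± 0.11 there (adjusted p = 0.921, limma) over all cells of the sample, and the labels do not say which exons Cre removes.

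Large and small subunits had near-equal values. The median log2 fold change in the authors' deposited table was 0.15 over 47 large subunit genes (10.9% higher in AAV-Cre mice) and 0.16 over 33 small subunit genes (11.5%). With the trend in main transcript length removed, the medians were 0.09 for the large and 0.10 for the small subunit. The difference of the medians, large minus small, was -0.01, where the SD of the log2 fold changes over all members was 0.03. The ranges overlapped, 0.08 to 0.24 for the large and 0.09 to 0.21 for the small subunit. Counts at an unadjusted p under 0.05 looked less even, 8 of 47 (17.0%) for the large and 1 of 33 (3.03%) for the small subunit, beside 4.62% of all genes. At an unadjusted p under 0.1 they were 23 of 47 (48.9%) and 15 of 33 (45.5%), since many small subunit genes lay just past the first threshold: Rps23 had p = 0.0517, Rps16 0.0543, Rps10 0.0590 and Rps18 0.0596 in the limma column of the authors' deposited table. The difference between subunits was not tested, as the genes share mice. On the scale of mean log2 level per kilobase of main transcript, the core genes had medians of 7.45 for the large and 7.66 for the small subunit.

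The members of the large subunit's stalk had a higher median than the other groups defined by place in the ribosome. The stalk recruits elongation factors: Rplp0 is its base, Rplp1 and Rplp2 form its acidic arms, and Rpl12 sits at its foot. In the authors' deposited table Rplp0 stood at 0.24 ± 0.11 on the log2 scale, unadjusted p = 0.0445 and adjusted p = 0.919 in limma's columns. Rplp2 followed at 0.21 ± 0.09 in the authors' deposited table, and it had the smallest p of all members (0.0373, limma). Rplp1 and Rpl12 stood lower, at 0.18 ± 0.11 and 0.18 ± 0.10 in that deposited table. These errors are not those of a difference between genes. The stalk median of 0.20 lay above the 0.15 of all members. This difference was not tested, as the genes share mice. Rplp0 lies on the plus strand of chromosome 5 from 115559467 to 115563727, and Rplp2 on the plus strand of chromosome 7 from 141447370 to 141451585 (GRCm38, GENCODE M21).

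Proteins at the tRNA sites of the large subunit had a median of 0.16 in log2 fold change. Rpl10, which completes the peptidyl transferase centre late in assembly and is X-linked, had 0.19 ± 0.09 in the authors' deposited table, and Rpl10a, the protein of the L1 stalk by which used tRNA leaves, 0.15 ± 0.07. Both had an unadjusted limma p under 0.05 (0.0401 for Rpl10 and 0.0396 for Rpl10a). Rpl8, whose tail also reaches that centre, stood at 0.17 ± 0.09 in the authors' deposited table, and Rpl3, which reaches into the catalytic centre, at 0.11 ± 0.10. The 5S particle, whose proteins Rpl5 and Rpl11 also bind the p53 regulator MDM2 when ribosome assembly fails, showed 0.16 ± 0.08 and 0.18 ± 0.09 for those genes in the authors' deposited table. Other large subunit genes with an unadjusted p under 0.05 included Rpl41 (0.20 ± 0.09), which encodes the smallest ribosomal protein, Rpl6 (0.15 ± 0.07) and the paralog Rpl7l1 in the authors' deposited table.

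Genes of the nascent chain's exit tunnel lay close together. Its 8 members lay between 0.12 and 0.17 in log2 fold change in the authors' deposited table, with a median of 0.14. Rpl4, which lines the constriction of the tunnel, stood at 0.14 ± 0.07 in that deposited table, Rpl39 at 0.14 ± 0.10, and Rpl26 and Rpl19 at its rim at 0.17 ± 0.09 and 0.17 ± 0.08. Rpl17, Rpl23a, Rpl31 and Rpl35, which ring the exit, had 0.14 ± 0.09, 0.14 ± 0.10, 0.13 ± 0.09 and 0.12 ± 0.10 in the authors' deposited table. None of the 8 had an unadjusted p under 0.05, where 4.62% of all genes were higher at that p. With 8 genes this cannot be told from that share. The lowest large subunit values belonged to Rpl22l1 (0.08 ± 0.09), Rpl22 (0.09 ± 0.07) and Rpl9 (0.09 ± 0.10) in the authors' deposited table. Rpl13a, known from human cells for a second role in silencing translation of interferon-induced messengers, stood at 0.12 ± 0.10 in that deposited table.

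In the small subunit, Rps7, known from human cells to be needed for processing of the subunit's ribosomal RNA, was highest. Its log2 fold change in the authors' deposited table was 0.21 ± 0.09 (unadjusted limma p = 0.0399). Rps12 (0.21 ± 0.11), Rps23 (0.20 ± 0.10), which sits at the decoding site, and Rps16 (0.20 ± 0.09) followed in the authors' deposited table. Along the path of the messenger, 9 of 9 genes lay above 0 with a median of 0.15, beside 59.1% of all genes above 0. An unadjusted p under 0.05 was listed for 0 of the 9, where 4.62% of all genes were higher at that p. Among so few genes 0 cannot be told from that share. Rps28, near the exit of the messenger, had 0.17 ± 0.09 in the authors' deposited table, and Rps2 and Rps3, at its entry, 0.14 ± 0.11 and 0.15 ± 0.09. Rps3a1 and Rps15 had 0.15 ± 0.09 and 0.15 ± 0.10 in that deposited table. Rps26, which touches the messenger upstream of the start codon, stood at 0.14 ± 0.10, and Rpsa, which doubles as a laminin receptor, at 0.16 ± 0.10 in that deposited table. Rps6, the substrate of S6 kinase and a common marker of mTORC1 activity in neurons, had 0.14 ± 0.08 in the authors' deposited table. Rps9, Rps10 and Rps18 had 0.19 ± 0.10, 0.18 ± 0.09 and 0.18 ± 0.09 in that deposited table. The lowest small subunit values in the authors' deposited table were those of Rps27l (0.09 ± 0.08), Rps15a (0.11 ± 0.08) and Rps26.

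A few ribosomal proteins are made as fusions with ubiquitin or a ubiquitin-like protein, and their genes lay within the range of the others. Rps27a, a member, stood at 0.14 ± 0.09 on the log2 scale in the authors' deposited table. Fau, which encodes a small subunit protein under another name and so falls outside the rule, stood at 0.21 ± 0.10 in that deposited table.

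**Figure D2:**
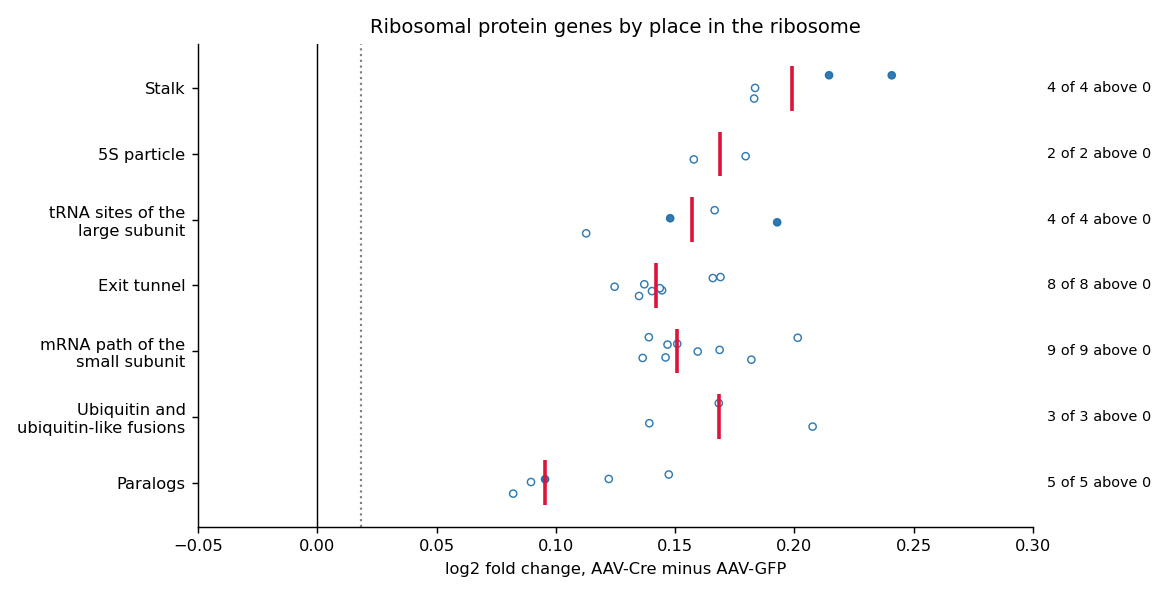
Log2 fold change of AAV-Cre minus AAV-GFP for genes grouped by place in the ribosome, 1 point per gene; red bars are medians, filled points have an unadjusted p under 0.05 and the dotted line is the median of all genes. Every point lies above 0; the stalk has a median of 0.20 and the paralogs 0.10.

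The 5 measured paralogs had a median of 0.10 in log2 fold change, against 0.15 for the 76 core members. Rpl22l1, Rps27l and Rpl7l1 are paralogs of Rpl22, Rps27 and Rpl7. On the log2 scale of the authors' deposited table they had 0.08 ± 0.09, 0.09 ± 0.08 and 0.10 ± 0.04, beside 0.09 ± 0.07, 0.19 ± 0.12 and 0.15 ± 0.07 for the core genes. Rpl7l1 had the smallest standard error of any member and an unadjusted limma p of 0.0475. On the scale of mean log2 level per kilobase, Rps27l stood at 4.11 against 8.01 for Rps27, and Rpl7l1 at 3.79 against 7.67 for Rpl7. Rpl22l1 stood at 6.43 and Rpl22, whose main transcript is longer, at 5.43 on that scale. In mean log2 level as deposited the order was the other way, 5.57 for Rpl22l1 and 6.47 for Rpl22. Rps4l (0.15 ± 0.13 in the authors' deposited table) is listed there as protein coding and in GENCODE M21 as a transcribed processed pseudogene. Rpl36al, a copy of Rpl36a outside the rule, had 0.12 ± 0.07 in that deposited table. Reads of close copies may be shared between genes, and how the authors assigned them is not given in the sources used here.

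Most core genes also have processed pseudogenes, and 61 of the 80 members have at least 1 annotated pseudogene of their own name, 293 in all in GENCODE M21. The 19 members without one of their own name had a median log2 fold change of 0.17 in the authors' deposited table. The 61 with one had 0.15, and both medians lay above that of all genes. Pseudogenes under other names were not counted, so the 19 are not known to be free of them.

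The median of the list of elongation factors and other TOP messengers stood between those of the ribosomal genes and of all genes. Its single genes were spread from -0.03 to 0.21 in log2 fold change, with Hnrnpa1 at 0.01. Of 17 measured genes in this list 15 were above 0 in the authors' deposited table. Their median was 0.11 on the log2 scale, and 5 had an unadjusted p under 0.05 (29.4%, beside 4.62% of all genes). Pabpc1, the cytoplasmic poly(A)-binding protein, had 0.20 ± 0.06 (unadjusted limma p = 0.00432, adjusted p = 0.766) in the authors' deposited table. Eef1a1, which delivers aminoacyl-tRNA, had 0.21 ± 0.08 and Gnb2l1, which encodes the ribosome-bound scaffold RACK1, 0.18 ± 0.07 in that deposited table. Tpt1, a TOP messenger for a growth-related protein, had 0.18 ± 0.08, and Eef1d, an exchange factor subunit for eEF1A, 0.11 ± 0.05, in the authors' deposited table. Eef1a2, the form that mature neurons use in place of Eef1a1, had -0.02 ± 0.06 in that deposited table. Eef2, the translocase, had 0.04 ± 0.04 in the authors' deposited table.

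Initiation factors lay closer to other genes. Of 38 genes 31 were above 0 in the authors' deposited table; their median was 0.05 on the log2 scale, and 4 had an unadjusted p under 0.05, all higher (10.5%, beside 4.62% of all genes). These were Eif3e (0.13 ± 0.06), Eif3b (0.09 ± 0.04) and Eif3f (0.18 ± 0.08), subunits of the eIF3 scaffold, and Eif4b (0.09 ± 0.04), a helicase cofactor, in the authors' deposited table. All 13 measured eIF3 genes were above 0, with a median of 0.07. The lowest initiation factor in the authors' deposited table was the scaffold gene Eif4g3, at -0.13 ± 0.07.

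Genes for making ribosomes had a median nearer to that of all genes. Of 60 biogenesis genes 46 were above 0 in the authors' deposited table; their median was 0.04 on the log2 scale, and 2 had a higher level at an unadjusted p under 0.05 (3.33%, below the 4.62% of all genes), namely Nop16 (0.16 ± 0.07) and Pes1 (0.08 ± 0.04). Utp18 and Emg1 came next, at 0.10 ± 0.05 and 0.11 ± 0.06 in that deposited table. Of the 5 RNA polymerase I subunit genes, 3 were above 0 (median 0.01), and the nucleolar protein genes Ncl and Fbl had 0.02 ± 0.05 and 0.08 ± 0.05 in the authors' deposited table. Along the mTORC1 axis 19 of 30 genes were above 0 with a median of 0.03. Of the 30, 1 (3.33%, beside 4.62% of all genes) had an unadjusted p under 0.05. The median log2 level of this list was 5.77. The 1 gene was Myc, which drives ribosomal gene transcription (0.36 ± 0.16 in the authors' deposited table, at a low mean log2 level of 1.92). Max (0.11 ± 0.05), Akt1 (0.09 ± 0.04) and Rps6ka1 (0.18 ± 0.11) followed it, while Mtor, Larp1 and the S6 kinase gene Rps6kb1 had -0.05 ± 0.07, -0.01 ± 0.06 and -0.04 ± 0.04 in the authors' deposited table.

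The mitochondrial ribosome and the proteasome, other large complexes of short and widely expressed genes, were nearer to the genome. For mitochondrial ribosomal proteins 68 of 76 genes were above 0 with a median of 0.05 on the log2 scale, and 3 (3.95%, below the 4.62% of all genes) had an unadjusted p under 0.05: Mrpl57 (0.15 ± 0.06), Mrps17 (0.10 ± 0.04) and Mrps35 (0.13 ± 0.06) in the authors' deposited table. Mrpl2 came next at 0.10 ± 0.05 in that table. For the proteasome 31 of 37 were above 0, with a median of 0.04, and the 2 with an unadjusted p under 0.05 (5.41%, near the 4.62% of all genes) were the immune forms Psmb9 (1.16 ± 0.34) and Psmb8 (1.08 ± 0.33) in the authors' deposited table. The core subunit genes Psmb4 and Psmb1 had 0.07 ± 0.05 and 0.08 ± 0.05 in that table.

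**Figure D3:**
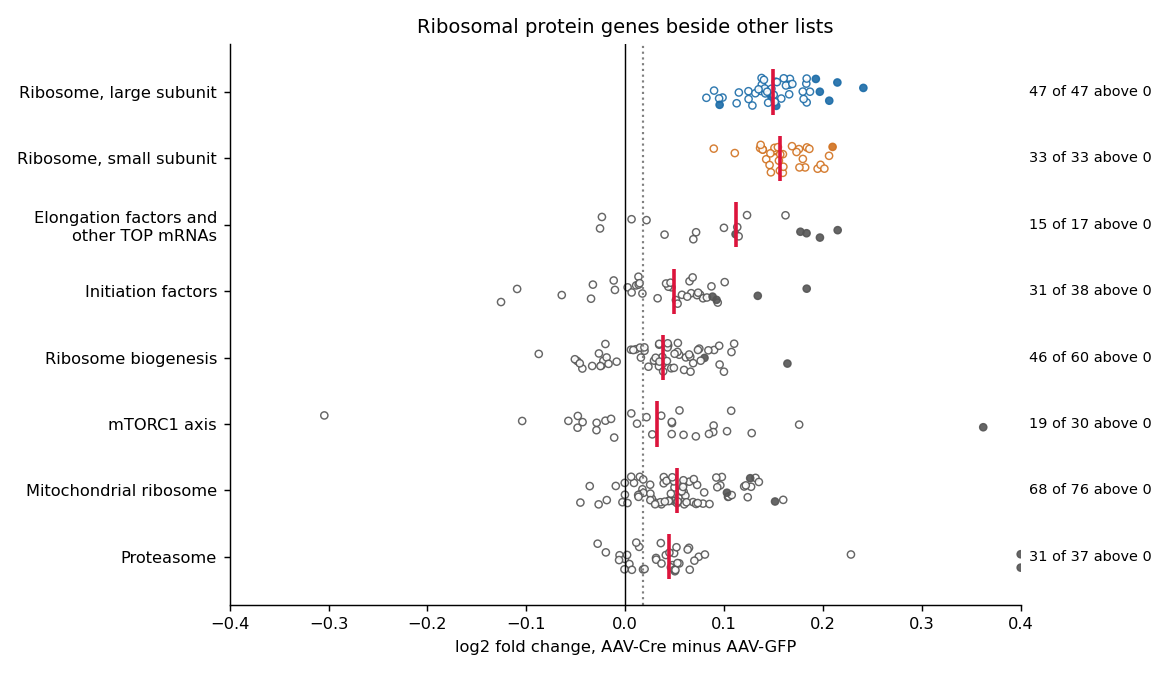
Log2 fold change of AAV-Cre minus AAV-GFP for the genes of each list, 1 point per gene; red bars are medians, filled points have an unadjusted p under 0.05, the dotted line is the median of all genes, and 2 proteasome genes beyond 0.4 are drawn at the right edge. The subunits of the cytosolic ribosome have medians of 0.15 and 0.16, elongation factors and other TOP messengers 0.11, and the other lists 0.03 to 0.05.

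Length moved with the fold change across the table. With genes split into 4 equal classes by exonic length, the median log2 fold change of non-members in the authors' deposited table was 0.05 in the shortest class (up to 2636 bases) and -0.01 in the longest. Of the members 57 lay in the shortest class, 19 in the second and 4 in the third, and their medians there were 0.15, 0.15 and 0.15. With the trend over all genes removed, all 80 members stayed above 0 and their median was 0.11 for exonic length. With the length of the main coding transcript in its place, the median of the 79 members that have one was 0.09, against 0.15 as deposited. The 2 lengths differ, as exonic length joins the exons of all transcripts. Its median was 1805.5 bases for the members and 4368 for all genes, while main transcripts had medians of 886 and 3200. Removal of the exonic trend left the mitochondrial ribosomal genes at 0.01, the proteasome genes at 0.01 and the elongation list at 0.07. The part of length in the ribosomal values was not tested further. Mean level gave another picture: among 6838 non-members within the level range of the core members, the median was 0.01, and 3.19% reached the members' median. Within the members, the log2 fold change had a Spearman correlation of 0.12 with mean level and -0.07 with exonic length (n = 80 genes from the same libraries).

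**Figure D4:**
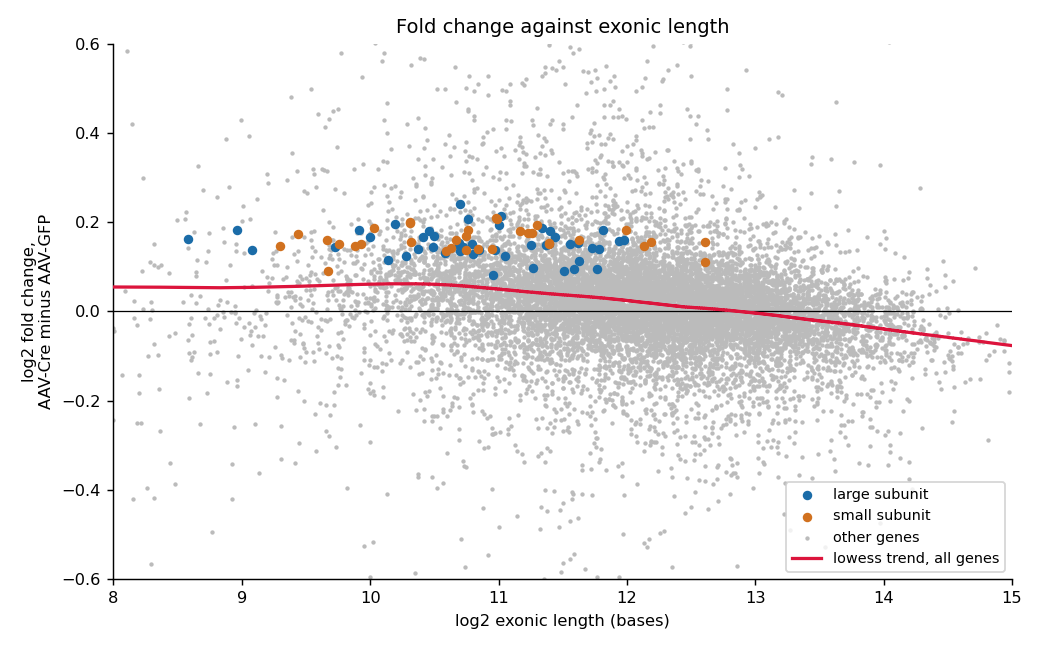
Log2 fold change of AAV-Cre minus AAV-GFP against log2 exonic length, 1 point per gene, with large subunit genes in blue, small subunit genes in orange, other genes in grey and the lowess trend of all genes in red; 503 genes lie beyond the axes. The trend falls from short to long genes, and the 80 ribosomal genes lie above it.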

How the data were processed

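RNA was extracted with Trizol and libraries were made with an Illumina mRNA kit, per the labels' protocols. Bowtie2 2.1.0, TopHat2 2.0.9 and mm10 (GRCm38) are named in the submitters' processing notes. No source used here names the tool for counting, its annotation, the filter or the model, so how reads shared by ribosomal genes and their pseudogenes were counted is unknown. The deposited log2 values are, per the file headers, the mean log2 level of each gene and its log2 fold change. The deposited score columns, per the file headers, hold the log-odds and the moderated t, under limma's column names. The deposited p-values, per the file headers, are unadjusted and adjusted, and the adjusted ones equal a Benjamini-Hochberg adjustment over the 13130 rows. The direction, AAV-Cre minus AAV-GFP, comes from the name of the table. Linear mean levels sum to 991364, so a log2 level is read as log2 CPM. Depth per library is unknown, and no test on library values could be run, so the authors' limma statistics were used as deposited.

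Standard errors are the fold change divided by t, and 95% limits use the 15.1 degrees of freedom that turn t into p. Replicates are separate mice. Exonic lengths (13063 genes) join all exons of a gene in GENCODE M21. The main transcript is the longest coding transcript with the top APPRIS tag, or the longest of all coding transcripts where none has it. Trends were removed by lowess (fraction 0.3). The steps were tested on simulated data. The members and lists were chosen with earlier results of these data known. Genes named are, per subunit, the 6 of smallest p and the 3 highest and 3 lowest, those of the lists by place in the ribosome, Rps6, Rpl13a, Tet1 and the 4 of smallest p in the other lists of the translation machinery; of the cell markers fewer are named, and the others (Rps27, Rpl7, Eef1d, Eef1a2, Eef2, Eif4g3, Ncl, Fbl, Mtor, Larp1, Rps6kb1, Rps6kb2 and the pseudogenes) were chosen after their values were seen. Some genes that the rule names are not reported here. Promoter sequences are RefSeq's. Tools were matplotlib 3.10.9, statsmodels 0.14.6, scipy 1.17.1, pandas 2.3.3 and numpy 2.4.6 under Python 3.11.15.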

Additional observations from a re-analysis of the deposited data

How the results depend on the processing

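The median log2 fold change of the 80 members, 0.15 as deposited, stayed positive under all 9 alternatives. It was lowest with the trend of main transcript length removed (0.09), an alternative added after seeing the data, and highest with members that have a named pseudogene left out (0.17), also added afterwards. For the large subunit these settings gave 0.09 and 0.16, and for the small subunit 0.10 and 0.17, and the exonic length trend gave 0.10 and 0.11. Under 5 others (paralogs left out, a level minimum of 64 CPM, a weighted mean, centring on all genes and the level trend) the medians lay between 0.13 and 0.16. The count of members higher at an unadjusted p under 0.05 was 9 of 80 as deposited (11.2%) and 8 of 76 without paralogs (10.5%). Among the 19 members without a named pseudogene it was 3 (15.8%), the fall to 3 following from fewer genes counted. The share of all genes was 4.62%. At a threshold of 0.1 the count was 38 of 80 (47.5%), beside 8.97% of all genes. The 0.1 threshold and the 19 members were settings added after seeing the data. No member was called at an adjusted p of 0.05, at 0.1, or with adjustment over the 12697 genes with a mean of at least 1 CPM, where the smallest adjusted p of a member (Benjamini-Hochberg over limma's p-values) was 0.928, although 9 had an unadjusted p under 0.05. No paired analysis was possible because the labels give no shared replicate numbers and the table holds no value per mouse, and without such values no mouse could be left out. Depth is unknown, so what it limits is unknown too.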

Other observations

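The authors' deposited table also holds 6 genes with the symbol of a ribosomal protein pseudogene, ending in -ps and a number. All had a log2 fold change above 0, with a median of 0.15, beside 0.15 for the members. Their median log2 level was low, at -0.50, where that of the members was 7.37. Pseudogenes under other names were not counted. Rpl38-ps2 had 0.26 ± 0.21 (standard error), Rps25-ps1 0.22 ± 0.15, Rps19-ps3 0.13 ± 0.17, Rpl36-ps2 0.11 ± 0.22 and Rpl31-ps12 0.08 ± 0.23 in the authors' deposited table. None of the 6 had an unadjusted p under 0.05, where 4.62% of all genes were higher at that p. Rpl3-ps1 had the largest error of them, 0.17 ± 1.72 in that deposited table, at a mean log2 level of 2.17, while the members' standard errors reached 0.13.

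The 10 genes named after kinases of the ribosomal protein S6 family had a median log2 fold change of 0.02 in the authors' deposited table, with 6 of 10 above 0. They ran from -0.10 ± 0.14 (standard error) for Rps6kb2 to 0.18 ± 0.11 for Rps6ka1 in that deposited table. The X-linked ribosomal members Rpl10, Rps4x, Rpl36a and Rpl39 had a median of 0.16, and the 14 members on chromosome 7, the chromosome with the most, also had 0.16.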
